A study of Mus musculus with 24 samples.

Results

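Nuclear receptors are transcription factors, most of which are switched on or off by a small lipophilic ligand, and 35 genes of this family were followed here in the colon and liver of mice. The genes were selected by name, and all 35 names were found among the 27962 gene names on the array. They were measured by 59 of its 41174 probes. Where a gene had more than 1 probe, as 16 of the 35 did, the probe with the highest mean intensity represented the gene, and the other probes were used as a check.

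RNA came from whole colon and whole liver of 12 female C57BL/6 offspring at 12 weeks of age, and each mouse gave both tissues. All dams ate HF-low, a diet rich in fat but poor in folate and selenium, before mating, through gestation and in lactation. At weaning 6 daughters stayed on HF-low (the HF-low-low group) and 6 were moved to HF-suf, equally rich in fat but with enough of both nutrients (the HF-low-suf group). Every mouse was thus exposed to the low diet in early life and ate a high-fat diet throughout. Each of 24 two-colour arrays held the RNA of 1 tissue of 1 mouse in Cy3. A common pool of intestinal and liver RNA from all mice was in Cy5. Values are log2 ratios of Cy3 to Cy5, so that 0 is the level of the pool and a difference of 1 is a doubling. The level of the pool is not always the mean of these samples: the mean of 8 skeletal muscle markers lay between -5.47 and -2.82 on all 24 arrays.

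Most members of the family share a zinc-finger DNA binding domain and a ligand binding pocket. Many work as a pair with a retinoid X receptor (RXR), which is the common partner of the receptors for retinoic acid, thyroid hormone, vitamin D, fatty acids, oxysterols and xenobiotics. Others, the steroid receptors, pair with themselves, and a number of orphan receptors have no known circulating hormone. Liver is known for its fatty acid, oxysterol and xenobiotic receptors, which set bile acid, lipid and drug metabolism, while intestinal epithelium is a classical target of vitamin D.

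Cy3 signal had a median of 3.78 to 7.20 times local background, and 26.1% to 71.9% of the spots were well above background, depending on the array. Two-colour arrays give no read depth, and their number (n = 6 a group) limits the precision. The Cy5 signal of 22 arrays lay at 5.41 to 7.54 times background, while colon HF-low-suf replicate 5 stood apart at 18.1 times and liver HF-low-suf replicate 4 at 12.7 times with 8.75% of its spots marked as outliers. The labelled tissues matched their markers: all 5 measured hepatocyte markers were higher in liver, with a median difference of 6.07 on the log2 scale, and all 8 colon epithelium markers were higher in colon, with a median of -4.29 (liver minus colon). Of the other cell types, all 8 smooth muscle markers were higher in colon (median -3.28), as were 5 of 8 of enteric neurons and glia (median -1.03). Of 6 macrophage markers 5 were higher in liver and 1 in colon (median 1.01), of 8 skeletal muscle markers 4 were higher in liver (median 0.56), and of 7 B and plasma cell markers 2 were higher in each tissue (median 0.24). Their part in the members' differences was not tested.

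Detection separated the family into members that were read in both tissues and members that were not. A member was taken as well detected in a tissue when its Cy3 spot was marked well above background on at least 6 of its 12 arrays. By this measure 22 members were well detected in liver and 25 in colon, against 36.9% and 43.9% of all probes on the array. Each member stands by the brightest probe of its gene, while these shares count every probe, so they are not on the same footing. Of the 35, 21 were well detected in both tissues, and 15 of these were above background on every one of the 24 arrays (Rxra, Rxrb, Rxrg, Pparg, Thra, Vdr, Nr3c1, Rora, Nr1h2, Nr1h3, Nr1i2, Nr2f2, Nr2f6, Nr4a1 and Nr5a2). The other 6 were Rarb (12 liver and 10 colon arrays), Nr1i3 (12 and 10), Thrb (11 and 12), Nr1d2 (10 and 12), Esrrg (9 and 7) and Nr2c1 (7 and 12).

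Few members were well detected in 1 tissue alone. Esr1 was the single one of liver, with 12 liver arrays against 1 colon array. The 4 of colon were Nr4a2 (0 liver and 11 colon arrays), Nr2e3 (0 and 11), Nr2c2 (3 and 11) and Nr6a1 (4 and 6). Well detected in neither tissue were 9 members. Of these, Rara (0 liver and 1 colon array), Esr2 (0 and 1), Pgr (0 and 1), Rarg (1 and 1), Ppard (1 and 1) and Nr3c2 (1 and 4) were above background on a few arrays, and Esrrb, Nr2f1 and Nr4a3 on none. A probe that was not well above background was not measured, and this says nothing about whether the gene was expressed.

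**Figure D1:**
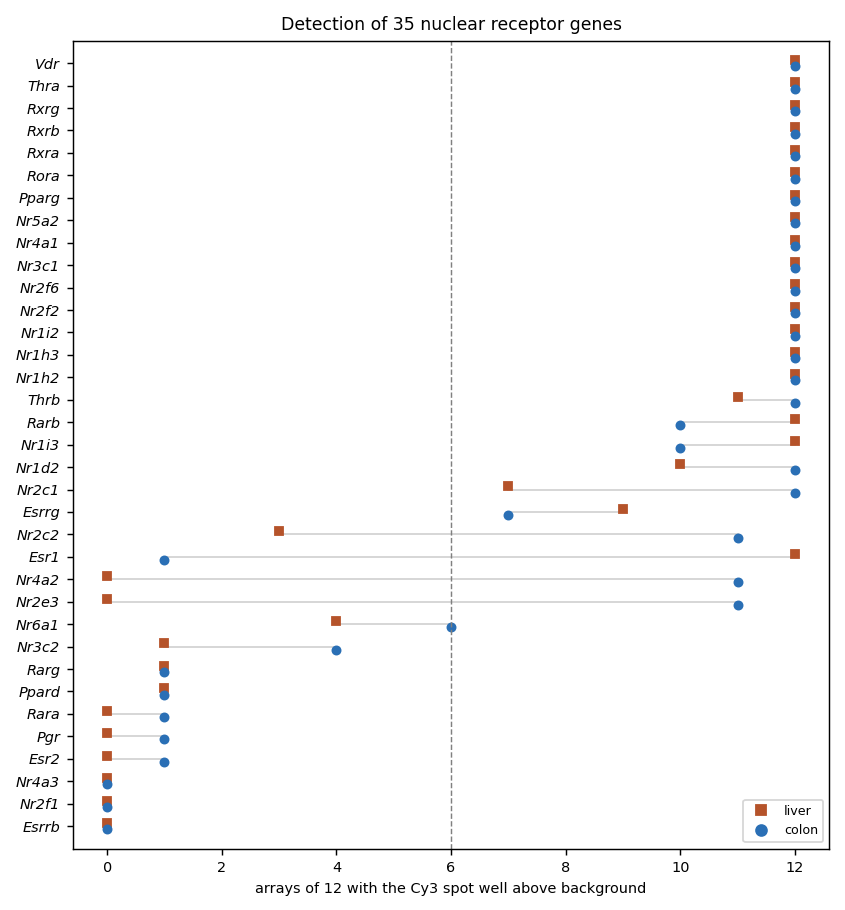
Number of arrays, of 12 in each tissue, on which the Cy3 spot of each member was well above background (squares, liver; circles, colon; the dashed line marks 6 arrays). The 15 members at the top lie at 12 in both tissues, and Esrrb, Nr2f1 and Nr4a3 at the bottom lie at 0.

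The first comparison asked which members differ in mRNA abundance between liver and colon. A member was called when limma, fitted to all 24 arrays with mouse as random block, gave an adjusted P below 0.05 and a fold change above 1.5. Of the 35 members, 10 were higher in liver and 7 higher in colon by this rule, and 18 were called in neither direction. With each array centred on its median in place of loess, 29.2% of the calls over all probes were towards liver, against 48.3% here. Over all probes 11.4% were called higher in liver and 12.2% higher in colon, 23.6% in all, and among the probes well detected in at least 1 tissue 45.5% were called. Of the 17 members called, 16 were well detected in the tissue where they were higher. These 16 came from the members well detected in both tissues (21), in colon alone (4) or in liver alone (1). The exception was Esrrb, an orphan relative of the estrogen receptors, which was dim on all 24 arrays. It is among the 10 counted higher in liver, but its difference is not taken as measured. The values of 11 members did not overlap between the 12 liver and the 12 colon arrays, against 12.5% of all probes. As with detection, the shares over all probes include the dimmer probes of a gene, which the counts of members leave out. In whole tissue, fewer cells of a type and less RNA per cell cannot be told apart.

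**Figure D2:**
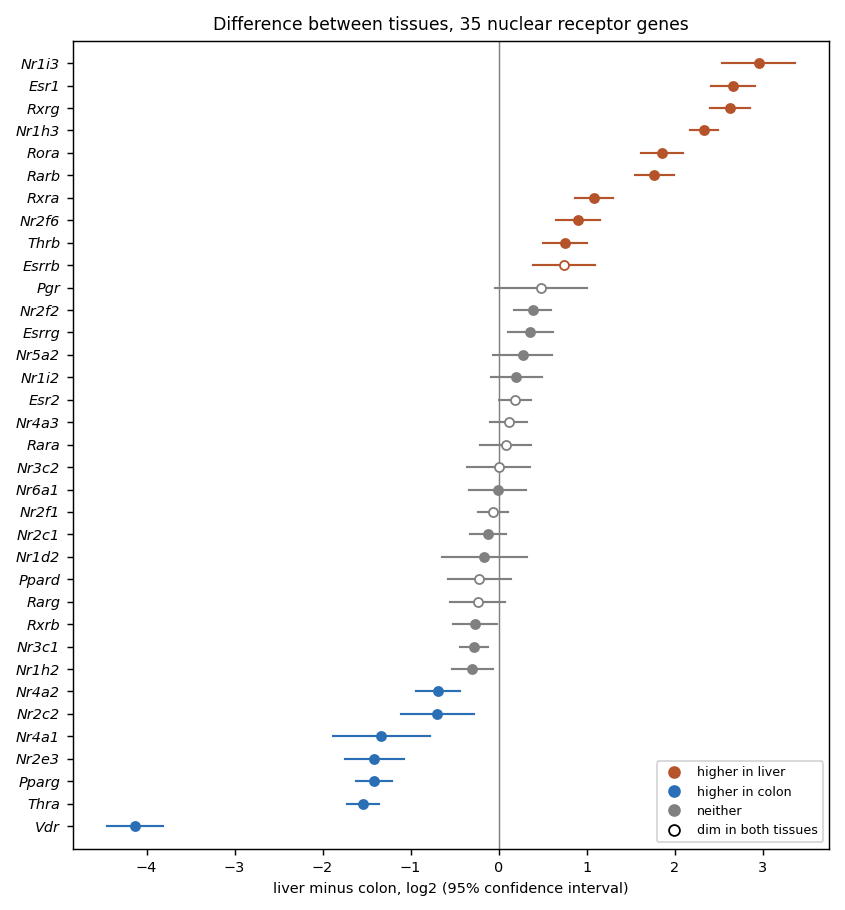
Liver minus colon difference of each member on the log2 scale, with its 95% confidence interval from the limma fit (n = 12 mice, both tissues of each). Members run from Nr1i3 at 2.95 to Vdr at -4.13. Filled coloured points passed the test, grey points did not, and open points were dim in both tissues.

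Among the receptors of retinoids, 3 of 6 were higher in liver (Rxrg, Rarb and Rxra), none was higher in colon, and 3 were not called. Rxrg, an RXR of restricted distribution, lay between 0.18 and 1.15 on the liver arrays (median 0.77) and between -2.23 and -1.53 on the colon arrays (median -1.95). The 2 ranges were far apart, and the difference was 2.63 ± 0.11 (SE, n = 12 mice, 6.17-fold, adjusted P = 3.30e-17). Rarb, a retinoic acid receptor whose own gene responds to retinoic acid, ranged from 0.25 to 1.37 in liver (median 0.89) and from -1.19 to -0.55 in colon (median -0.88). Its difference was 1.77 ± 0.11 (3.41-fold, adjusted P = 1.21e-13). A second Rarb probe, above background on 1 array of each tissue, gave 0.07.

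Rxra, the main RXR of hepatocytes, ranged from 0.60 to 1.76 in liver (median 1.03) and from -0.21 to 0.23 in colon (median -0.03), again without overlap. The difference of Rxra was 1.08 ± 0.10 (2.12-fold, adjusted P = 1.64e-09), and its other probe gave 0.99. The ubiquitous RXR, Rxrb, was read on every array and showed a difference of -0.27 with a 95% confidence interval that fell short of a 1.5-fold change (adjusted P = 0.0891), but with median centring it was -0.69 and called higher in colon. Rara and Rarg were dim in both tissues, so no comparison of these receptors was possible.

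Genes that make, carry and break down the ligand of these receptors were listed as retinoid handling genes. Of the 18 measured, 11 were higher in liver, 3 were higher in colon and 4 were called in neither direction, and their median difference was 0.89 against 0.02 over all probes. With median centring 9 were higher in liver and 4 in colon. The largest differences towards liver were those of Rbp4, the retinol carrier of plasma, at 6.60 ± 0.11 (SE) and of Ttr, its partner, at 5.46 ± 0.11, though Ttr was above background on 1 colon array alone, so that dim spots set the lower end. Towards colon, Rdh11 gave -0.87 ± 0.11, and Aldh1a3, which makes retinoic acid from retinaldehyde, was dim on all liver arrays and higher in colon by at least 1.63 on the log2 scale. Cyp26a1, which degrades retinoic acid and is itself a target of its receptors, had a fitted difference of 3.93 ± 0.20 towards liver, but it was above background on 1 colon array alone, so that dim spots set the lower end.

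The receptors of fatty acids, oxysterols and xenobiotics numbered 6, of which 2 were higher in liver, 1 was higher in colon and 3 were not called. Nr1i3 (the constitutive androstane receptor, which induces drug-metabolizing enzymes) ranged from 1.28 to 2.64 in liver (median 2.26) and from -1.61 to 0.17 in colon (median -0.83). The difference was 2.95 ± 0.20 (SE, n = 12 mice, 7.74-fold, adjusted P = 1.59e-12), with within-mouse differences from 1.94 to 4.19. Nr1h3 (the oxysterol receptor LXR alpha) ranged from 1.94 to 2.41 in liver (median 2.26) and from -0.35 to 0.22 in colon (median -0.04). Its difference was 2.33 ± 0.08 (5.03-fold, adjusted P = 2.23e-19), and the SD between mice of a diet was 0.147 in liver, against a median of 0.295 over the 15209 probes well detected there.

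Of the close relatives of these receptors, Nr1i2 and Nr1h2 were not called, and the difference between relatives was not tested. Nr1i2 (the pregnane X receptor) overlapped widely between liver (0.57 to 1.55) and colon (0.18 to 1.39), and the difference was 0.20 with a standard error of 0.14 (adjusted P = 0.316). Without HF-low-suf replicate 4 it was 0.12. Nr1h2 (LXR beta, which is expressed in nearly all tissues) had an adjusted P of 0.0393 with a difference of -0.30 ± 0.11 (SE), under the fold threshold. With median centring Nr1h2 was called higher in colon and Nr1i2 changed sign. Ppard was dim in both tissues, so no comparison of it was possible.

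Pparg, the receptor of adipocyte differentiation, was the only one of this class of 6 that was higher in colon. It ranged from 1.37 to 2.09 in colon (median 1.77) and from -0.10 to 0.74 in liver (median 0.28), and the difference was -1.42 ± 0.10 (SE, 2.67-fold, adjusted P = 1.85e-12). Markers of adipose tissue were also higher in colon: 6 of 7 passed the test, and the mean log2 ratio of the list ran from 0.91 to 2.76 on colon arrays and from -1.91 to 2.84 on liver arrays. None of the 7 was dim on all arrays, but 3 were well detected in liver against 6 in colon, so dim spots set part of the liver values. The liver with the highest adipose markers, HF-low-suf replicate 1 at 2.84, was also the one with the highest Pparg among the livers, at 0.74. Without HF-low-suf replicates 1 and 2 the difference of Pparg was -1.44. The part of adipose tissue in the level of Pparg was not tested.

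All 3 receptors of thyroid hormone and vitamin D differed between the tissues, in opposite directions. Vdr, the vitamin D receptor, had the largest difference of the whole family: it ranged from 0.57 to 1.48 in colon (median 0.91) and from -3.94 to -2.11 in liver (median -3.26). The difference was -4.13 ± 0.15 (SE, n = 12 mice, 17.5-fold, adjusted P = 3.42e-18), the Vdr probe was above background on all 24 arrays, and within-mouse differences lay between -4.91 and -3.26. The spread of Vdr between mice was larger in liver (SD 0.57) than in colon (SD 0.24). Since Vdr is the member at the far end, its upstream region is shown here, the 250 bases before the start of RefSeq on the minus strand at chr15:97908297-97908546 (GRCm38.p6), with the GC box GGGCGG in capitals, searched on both strands.
Vdr upstream: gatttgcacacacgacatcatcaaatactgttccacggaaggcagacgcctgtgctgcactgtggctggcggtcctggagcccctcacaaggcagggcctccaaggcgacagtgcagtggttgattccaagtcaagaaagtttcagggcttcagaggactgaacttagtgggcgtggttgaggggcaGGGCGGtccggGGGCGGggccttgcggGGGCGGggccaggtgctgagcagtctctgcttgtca
The GC box was found 3 times in this window. At least 1 was held by 32.7% of the 32851 upstream windows of RefSeq genes and by 44.2% of the 52 windows of members, and the share with 3 was not counted. S100g (calbindin-D9k, a textbook target of Vdr in intestine) was higher in colon by 6.10 on the log2 scale (-6.10 ± 0.27 as liver minus colon), against liver spots that were above background on 2 of 12 arrays.

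Of the thyroid hormone receptors, Thra was higher in colon and Thrb in liver. Thra ranged from 0.19 to 1.12 in colon (median 0.58) and from -1.24 to -0.56 in liver (median -0.96). The difference of Thra was -1.54 ± 0.09 (2.91-fold, adjusted P = 5.39e-14), and its other probe gave -1.03. Thrb, the main thyroid hormone receptor of hepatocytes, ranged from -0.32 to 0.89 in liver (median 0.36) and from -1.25 to 0.26 in colon (median -0.28), with some overlap. The difference of Thrb was 0.75 ± 0.12 (1.68-fold, adjusted P = 1.08e-05), higher in liver in 12 of 12 mice, and with median centring in place of loess it was 0.38 and no longer called. The 3 other Thrb probes gave 0.53, 0.35 and -0.12, none past the fold threshold, and the last of these was above background on 1 of 24 arrays.

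Genes that convert or move steroid, thyroid and vitamin D hormones were also listed. Of the 18 measured, 10 were higher in liver, 1 was higher in colon and 7 were not called, and the median difference was 0.85. With median centring 8 were higher in liver. Towards liver the list was led by Hsd11b1, which regenerates active glucocorticoid, at 5.62 ± 0.16 (SE), and by Sult1e1, an estrogen sulfotransferase, which was dim on all colon arrays and at least 6.62-fold higher in liver. The 1 gene higher in colon was Hsd11b2, which inactivates glucocorticoid. It was dim on all liver arrays and at least 3.08-fold higher in colon.

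The steroid receptors and their orphan relatives comprised 7 members, of which Esr1 and the dim Esrrb were called higher in liver, none was called higher in colon and 5 were not called. Esr1 (estrogen receptor alpha) ranged from 0.13 to 1.12 in liver (median 0.52) and from -2.57 to -1.74 in colon (median -2.08). The difference was 2.66 ± 0.12 (SE, n = 12 mice, 6.33-fold, adjusted P = 2.05e-16). Since 11 of the 12 colon arrays were not above background for Esr1, the lower end of this fold is set by dim spots. The second Esr1 probe was dim on 22 of 24 arrays and gave 0.25. Nr3c1 (the glucocorticoid receptor) was read on every array and was lower in liver in 11 of 12 mice, but by -0.28 ± 0.08 (adjusted P = 0.00464), and with median centring it was -0.70 and called higher in colon. Esr2, Pgr and Nr3c2 (the mineralocorticoid receptor) were dim in both tissues. Esrrg gave 0.36 ± 0.12 (adjusted P = 0.0225) on its main probe, under the fold threshold, and 1.66 (adjusted P = 1.73e-06) on a second probe that was above background on 6 liver arrays and no colon array.

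Of the receptors tied to the circadian clock, Rora was higher in liver and Nr1d2 was not called. Rora, an activator of clock genes, ranged from 0.09 to 1.31 in liver (median 0.70) and from -1.60 to -0.64 in colon (median -1.24). The difference was 1.86 ± 0.12 (SE, 3.63-fold, adjusted P = 2.87e-13), and the second well-detected Rora probe also gave 1.86. Nr1d2 (REV-ERB beta, a repressor of clock genes) ranged from -1.30 to 1.03 in liver and from -0.92 to 1.09 in colon. The difference of Nr1d2, -0.16 ± 0.24, was smaller than the spread between mice and was -0.030 without HF-low-low replicate 3 and -0.26 without HF-low-low replicate 4.

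The orphan receptors of the NR2 class were split. Nr2f6 ranged from -0.11 to 1.25 in liver (median 0.82) and from -0.51 to 0.09 in colon (median -0.23), with a small overlap, and the difference was 0.90 ± 0.12 (SE, 1.87-fold, adjusted P = 6.70e-07). Nr2e3, known as a photoreceptor gene, ranged from 0.34 to 1.45 in colon (median 1.10) and was dim on all 12 liver arrays. Its fitted difference was -1.41 ± 0.16 (adjusted P = 4.89e-08), and against the detection floor of the liver arrays it was at least 1.33-fold higher in colon. With median centring the fitted difference was -0.53 and no longer called. That bound sets the mean of the colon arrays against, on each liver array, the higher of the lowest signal well above background and the spot's own signal. Nr2c2 ranged from -1.54 to 0.70 in colon (median -0.19) and from -1.55 to -0.17 in liver, so that the ranges overlapped. The difference of Nr2c2 was -0.70 ± 0.20 (adjusted P = 0.00702) and fell to -0.58, under the fold threshold, without HF-low-suf replicate 6. Its liver end rests on spots above background on 3 of 12 arrays. A second Nr2c2 probe, above background on 5 colon arrays and 1 liver array, gave -0.33 (limma adjusted P = 0.0545) and was not called. Nr2f2 gave 0.38 ± 0.10 (adjusted P = 0.00365), under the fold threshold, and -0.016 with median centring. Nr2c1 gave -0.12 ± 0.10 (-0.067 without HF-low-suf replicate 5), and Nr2f1 was dim on all 24 arrays.

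The NR4A receptors are immediate early genes, switched on within minutes by many stimuli. Nr4a1 ranged from -1.20 to 0.56 in colon (median -0.39) and from -2.61 to 0.18 in liver (median -1.73). Colon was higher in 11 of 12 mice, by -1.33 ± 0.27 as liver minus colon (2.52-fold, adjusted P = 0.000165). On the arrays of scan day 1 alone it was -1.12 and no longer called. Nr4a2 ranged from -0.16 to 1.02 in colon (median 0.58), was dim on all liver arrays and was at least 1.42-fold higher in colon (adjusted P = 2.66e-05). Its fitted difference of -0.69 became -0.54 with median centring and was no longer called. Nr4a3 was dim on every array. The upstream windows of these 3 genes are shown because Nr4a1 and Nr4a2 were both higher in colon. In each the 250 bases before the RefSeq start are printed (GRCm38.p6), with the core TGACG of the cAMP response element, searched on both strands, in capitals. The windows lie at chr15:101266596-101266845 (plus strand), chr2:57124004-57124253 (minus strand) and chr4:48045055-48045304 (plus strand). Those of Nr4a1 and Nr4a3 overlap the annotated RefSeq span of the gene itself, and that of Nr4a2 overlaps another RefSeq gene.
Nr4a1 upstream: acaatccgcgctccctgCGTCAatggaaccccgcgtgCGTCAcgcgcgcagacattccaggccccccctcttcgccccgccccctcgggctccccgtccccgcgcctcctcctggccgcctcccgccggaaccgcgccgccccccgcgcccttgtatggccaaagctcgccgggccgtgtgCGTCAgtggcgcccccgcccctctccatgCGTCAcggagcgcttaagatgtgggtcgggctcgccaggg
Nr4a2 upstream: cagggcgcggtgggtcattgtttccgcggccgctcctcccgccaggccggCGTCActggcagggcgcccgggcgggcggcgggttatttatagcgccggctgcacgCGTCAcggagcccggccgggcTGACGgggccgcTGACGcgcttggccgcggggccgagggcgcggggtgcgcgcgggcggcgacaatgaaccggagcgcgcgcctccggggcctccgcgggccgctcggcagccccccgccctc
Nr4a3 upstream: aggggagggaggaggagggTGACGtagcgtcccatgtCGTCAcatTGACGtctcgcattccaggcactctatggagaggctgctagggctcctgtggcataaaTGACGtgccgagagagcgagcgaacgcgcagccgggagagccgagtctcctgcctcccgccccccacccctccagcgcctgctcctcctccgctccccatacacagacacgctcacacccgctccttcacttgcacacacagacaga
Each of the 3 windows held 4 matches, while 17.8% of all 32851 windows held at least 1 and 0.137% held at least 4. The cut of 4 is the count of these windows themselves, so that share is no test of enrichment. The GC content of the windows was 74.4% (Nr4a1), 80% (Nr4a2) and 63.6% (Nr4a3), and windows of like GC content were not compared. The whole element TGACGTCA was found in no member window, and in 1.55% of all windows. Upstream windows were found for 33 of the 35 members, with 52 windows in all, of which 21.2% held at least 1 TGACG.

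Nr5a2 (LRH-1, a receptor of bile acid and intestinal steroid synthesis) was read on every array and gave 0.27 ± 0.17 (SE, adjusted P = 0.228; 0.11 without HF-low-low replicate 4), and Nr6a1, a germ cell receptor, was well detected in colon alone. In all, 9 members were well detected in both tissues and not called (Rxrb, Esrrg, Nr3c1, Nr1h2, Nr1i2, Nr1d2, Nr2c1, Nr2f2 and Nr5a2). Their differences lay between -0.30 and 0.38, and their 95% confidence intervals between -0.65 and 0.61. The intervals of Esrrg, Nr1d2, Nr2f2 and Nr5a2 reached past a 1.5-fold difference, and those of Rxrb, Nr3c1, Nr1h2, Nr1i2 and Nr2c1 did not. These small differences depended on the scaling: with median centring Nr1h2 (-0.69) was called higher in colon like Rxrb and Nr3c1, Esrrg gave 0.026, and Nr1i2 (-0.22) and Nr5a2 (-0.14) changed sign, as did Nr2f2.

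**Figure D3:**
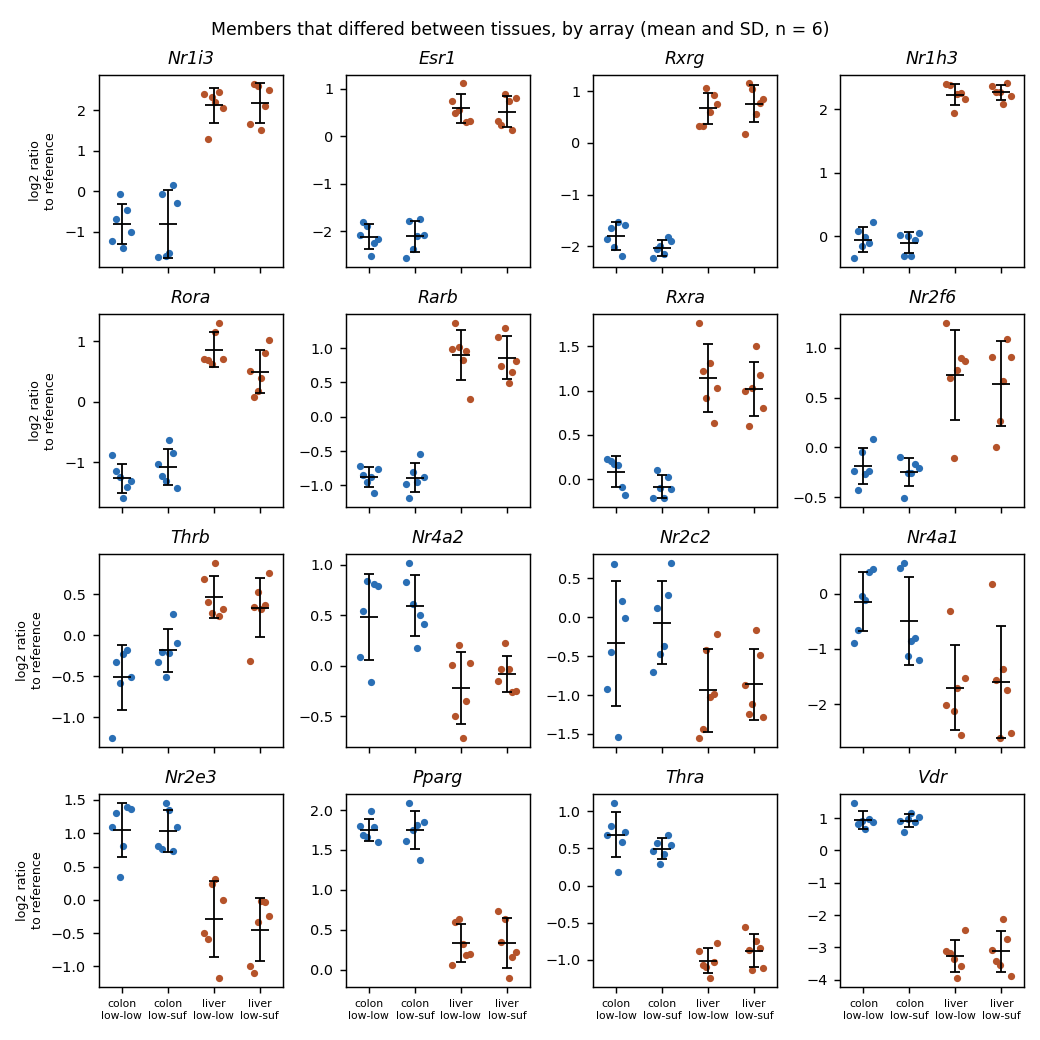
Log2 ratio to the reference pool on every array for the 16 members that passed the tissue test and were well detected in the higher tissue (points, 1 mouse each; bars, mean and SD of 6 mice, blue, colon; brown, liver). Panels run from Nr1i3 to Vdr in order of the difference, and in each the 2 diets of a tissue lie side by side.

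Partners that the receptors recruit to DNA were listed as coregulators. Of 17 measured, 6 were higher in colon, 1 was higher in liver and 10 were not called, with a median difference of -0.22. With median centring 9 were higher in colon and 0 in liver. Ppargc1b and Ppargc1a, coactivators of mitochondrial and fasting genes, gave -1.36 ± 0.17 (SE) and -1.08 ± 0.16, and Ncoa4, also a ferritin receptor, gave 0.82 ± 0.09 towards liver, a call lost with median centring. Of 24 textbook target genes of the receptors, 13 were higher in liver, 4 were higher in colon and 7 were not called (median 0.61), and with median centring 10 were higher in liver. Cyp3a11, a main target of Nr1i2, gave 6.03 ± 0.09 towards liver and Fabp4 -3.71 ± 0.36 towards colon, beside Cyp26a1 and S100g above. Fabp4 is also 1 of the adipose markers.

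The members differed in how evenly they were expressed among mice on the same diet. Nr4a1 (SD 0.898) and Nr1d2 (SD 0.768) had the widest spread of the members well detected in liver, at percentiles 98.4 and 97.1 of the well-detected probes there. In colon the widest were Nr1i3 (SD 0.691), Nr2c2 (SD 0.681), Nr4a1 (SD 0.675) and Nr1d2 (SD 0.658), all at percentile 97.0 or above. At the other end lay Nr1h3 in liver (SD 0.147) and Nr2c1 (SD 0.145) and Rxra (SD 0.151) in colon. The medians over well-detected probes were 0.295 in liver and 0.278 in colon.

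The second comparison asked whether the post-weaning diet changed the receptors in either tissue. Differences are given as HF-low-suf minus HF-low-low, so a positive value is a higher mRNA abundance after the move to sufficient selenium and folate. The labels put the mouse RNA in Cy3, and the hepatocyte markers bear this out, but the resulting direction is opposite to the one the study gives for the diet contrast. The markers check the dye and the tissue and not the diet labels, and the cause of the reversal was not tested. At the study's threshold of an unadjusted P below 0.01 with a fold change above 1.5, 0 of the 35 members were changed in colon and 0 in liver by their main probes, where 0.168% and 0.117% of all probes were. With Benjamini-Hochberg adjustment in limma, 0% of all probes passed in either tissue. At an unadjusted P below 0.05 there was also no main probe of a member in either tissue, against 2.98% of probes in colon and 2.13% in liver.

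Other probes of 3 members did fall below that P. In colon a Rora probe that was dim on all 24 arrays passed the study's threshold: it ranged from -2.43 to -0.28 under HF-low-low (median -1.01) and from -0.54 to 0.12 under HF-low-suf (median -0.07), a difference of 0.98 ± 0.28 (SE, n = 6 a group, exact permutation P = 0.00866). The groups overlapped, and the 2 well-detected Rora probes gave 0.18 and 0.13 in colon. A second Thrb probe, above background on 3 colon arrays, ranged from -0.66 to -0.29 under HF-low-low and from -0.20 to 0.21 under HF-low-suf. The diets did not overlap on this probe, and its difference of 0.41 ± 0.13 was under the fold threshold (exact permutation P = 0.00216, the smallest that 6 mice against 6 allow). The 2 remaining Thrb probes, above background on 1 and 2 colon arrays, went the other way from the main probe, at -0.26 (exact permutation P = 0.0368) and -0.051. In liver the second well-detected Rora probe gave -0.42 (exact permutation P = 0.0346), the dim Rora probe -0.39 and a dim Nr3c2 probe -0.47, none past the fold threshold. None of these probes passed Benjamini-Hochberg adjustment in limma over all probes.

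In colon the differences of the 25 well-detected members lay between -0.35 and 0.33, 9 of them above 0 and 16 below. The 3 members with the smallest P in limma were Thrb, Rxrg and Nr2f2, while the smallest exact permutation P was that of Rxra (-0.17 ± 0.13, P = 0.0844). Thrb ranged from -1.25 to -0.18 under HF-low-low (median -0.42) and from -0.51 to 0.26 under HF-low-suf (median -0.21), and the difference was 0.33 ± 0.19 (SE, n = 6 a group, limma P = 0.0943, exact permutation P = 0.110). Without HF-low-low replicate 1, the lowest Thrb value, it was 0.18. Rxrg ranged from -2.20 to -1.53 under HF-low-low (median -1.75) and from -2.23 to -1.82 under HF-low-suf (median -2.02), with a difference of -0.22 ± 0.15 (exact permutation P = 0.113). Nr2f2 ranged from -1.22 to -0.01 and from -1.30 to -0.70 in the same groups, with a difference of -0.28 ± 0.19 (exact permutation P = 0.197), which was -0.13 without HF-low-low replicate 1. The groups overlapped for all 3.

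In liver the differences of the 22 well-detected members lay between -0.37 and 0.22, 10 above 0 and 12 below. Rora had the smallest P by both tests. It ranged from 0.62 to 1.31 under HF-low-low (median 0.71) and from 0.09 to 1.02 under HF-low-suf (median 0.45), and the difference was -0.37 ± 0.18 (SE, n = 6 a group, limma P = 0.0669, exact permutation P = 0.0758). Nr1h2 ranged from -0.96 to 0.17 under HF-low-low and from -0.37 to 0.36 under HF-low-suf, with a difference of 0.22 ± 0.18 (exact permutation P = 0.288), which was 0.081 without HF-low-low replicate 3. Thra ranged from -1.24 to -0.77 and from -1.14 to -0.56, with a difference of 0.14 ± 0.13 (exact permutation P = 0.262), which was 0.072 without HF-low-suf replicate 1. The diets overlapped for all of these. The receptors with the strongest lead in liver over colon were close to 0 between the diets: Nr1i3 gave 0.05 ± 0.24, Esr1 -0.07 ± 0.18, Rxrg 0.09 ± 0.19 and Nr1h3 0.04 ± 0.12. Vdr gave -0.03 ± 0.15 in colon.

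The intervals show what these comparisons could resolve. The 95% confidence interval lay within a 1.5-fold change in both directions for 17 of the 25 members in colon and for 16 of the 22 in liver. For the rest, which include Nr4a1, Nr1d2 and Nr5a2 in colon and Nr4a1, Nr1d2 and Vdr in liver, a change of that size was not excluded. The widest interval among well-detected members was that of Nr1i3 in colon, from -0.72 to 0.69, and that of Nr4a1 in liver, from -0.85 to 1.06. Of the related lists, no coregulator, retinoid handling gene, hormone conversion gene or target gene passed the study's threshold in either tissue.

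**Figure D4:**
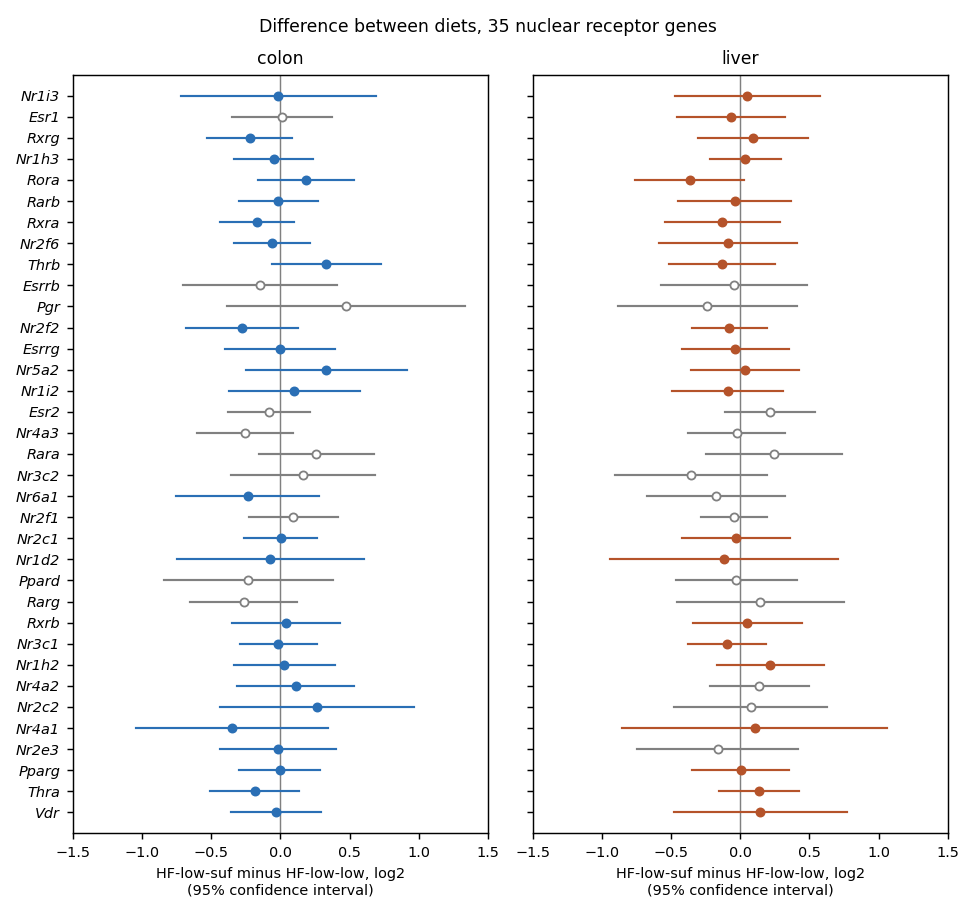
HF-low-suf minus HF-low-low difference of each member in colon (left) and liver (right) on the log2 scale, with its 95% confidence interval from limma (n = 6 mice a group). Members are in the order of the tissue difference, and open points were not well detected in that tissue. Every interval includes 0.

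The third comparison asked whether the effect of diet differed between liver and colon of the same mice. After Benjamini-Hochberg adjustment in limma 0 members and 0% of all probes passed, and at an unadjusted P below 0.05 there was 1 member, Rora, against 6.43% of probes. The diet difference of Rora was 0.18 ± 0.16 (SE) in colon and -0.37 ± 0.18 in liver, and the difference between the 2 was -0.55. On the arrays of the 2 scan days taken apart it was -0.31 and -0.79. The second well-detected Rora probe gave 0.13 in colon and -0.42 in liver. The dim Rora probe gave 0.98 in colon and -0.39 in liver, which are differences among spots not well above background.

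The arrays were scanned on 2 days, replicates 1 to 3 of every group on the first and 4 to 6 on the other, and the diet difference of some members was not alike in the 2 sets. Whether it differed between the days was not tested. In colon Nr1d2 ranged from 0.14 to 1.09 under HF-low-low and from -0.92 to -0.45 under HF-low-suf on the first day. On the other day it ranged from -0.72 to -0.40 and from 0.08 to 0.83 in the same groups. The groups did not overlap on either day, and the order was turned: the difference was -1.13 ± 0.29 (SE, n = 3 a group) and then 0.98 ± 0.23, while over all 12 arrays it was -0.07 ± 0.32. Nr4a1 gave 0.49 in colon on the first day and -1.19 ± 0.22 on the other. Nr1d2 on both days and Nr4a1 on the other day passed the study's threshold in limma fits of the 6 arrays. None of these passed Benjamini-Hochberg adjustment, and 0.675% and 0.250% of all probes passed the study's threshold in colon on the 2 days. In liver no member passed on either day, against 0.143% and 0.00486% of probes. The livers of HF-low-suf replicates 1 and 2 stood apart in markers of other tissues. Replicate 1 was highest in adipose markers (2.84), and replicate 2 was highest in skeletal muscle markers, with a mean of -2.82 where the other livers of both diets lay between -5.18 and -4.07. The median diet difference in liver was 1.03 over the adipose list, of which 3 of 7 genes were well detected there, and 0.39 over the skeletal muscle list. No gene of either list passed the study's threshold, and their part in the members' values was not tested. Without HF-low-suf replicates 1 and 2, Nr4a1 passed in colon (-0.85) and no member in liver, against 0.204% and 0.0753% of probes. In liver the values of Nr1d2 overlapped between the diets on both days, with differences of -0.68 and then 0.45. Rora in colon gave -0.10 and then 0.47, with overlap on both days. Scan day moves with these values together with the slides and the mice on them, which cannot be told apart, and their part in the result was not tested.

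**Figure D5:**
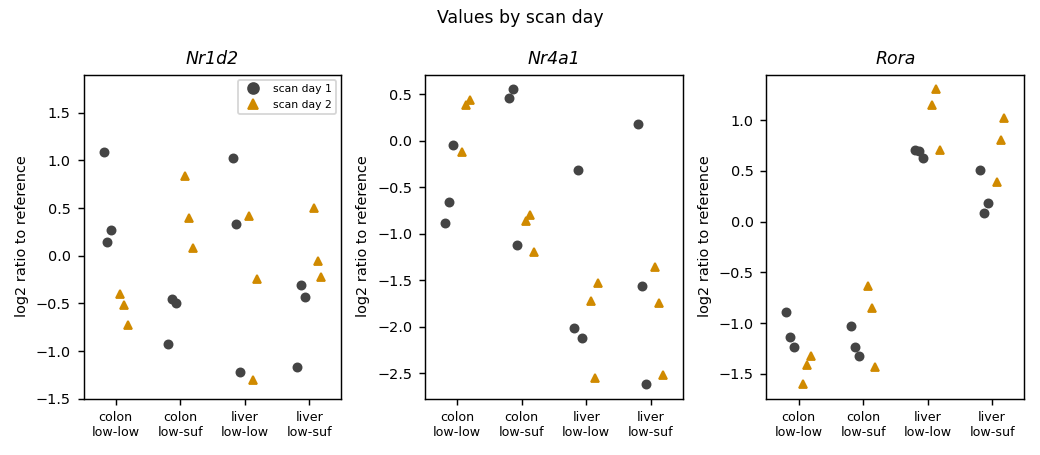
Log2 ratio to the reference pool of Nr1d2, Nr4a1 and Rora on every array, by tissue and diet (circles, the 3 replicates of scan day 1; triangles, those of scan day 2). In colon the 2 diets of Nr1d2 change places between the days, with ranges of 0.14 to 1.09 and -0.92 to -0.45 on day 1 and of -0.72 to -0.40 and 0.08 to 0.83 on day 2.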

How the data were processed

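The deposited files hold scanner output of Agilent mouse arrays, with spot and background intensity in both dyes as extracted by the authors with Feature Extraction 9.5.3.1 (probe positions on build mm7). From the deposited intensities, log2 ratios of Cy3 to Cy5 were computed here with limma 3.58.1 in R 4.3.3 (with statmod 1.5.0): background was corrected by normexp with an offset of 50, which pulls the ratios of dim spots towards 0, and each array was normalised by loess. Control spots (1639 of 45018) and outlier spots were dropped, and the mean was taken over spots that share a probe. Gene names are those of the array's design and can be old.

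Groups came from the sample labels. Colon and liver of a mouse were tied by a random block (consensus correlation 0.158), since the labels give the mouse. Diets were compared within a tissue, over 12 arrays. A replicate number across diets marks a shared slide: same-numbered deviations correlated from -0.085 to 0.238 in colon and from -0.500 to 0.528 in liver, so it was used as a block only as an alternative. Exact permutation tests were two-sided, over 924 assignments for diet. Within a tissue each array is a separate mouse, so P-values of the diet comparisons measure the spread between mice.

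Tests were checked on simulated data, at an adjusted P below 0.05. A log2 change of 2 in a diet comparison was recovered for 100% of 200 changed probes among 36748 in colon and for 94% in liver. There were 13 false calls in colon and 14 in liver. A change of 2 is well above the 1.5-fold threshold, so this does not show how often smaller diet changes would be found. Alternatives covered background correction, scaling, detection, the fold threshold, the choice of probe, slide and scan day, and leaving out each replicate. The members and the gene lists were chosen with earlier results of these data known. Values were given for up to 8 members in each direction between tissues and for the 3 with the smallest P in each diet comparison, among members well detected in that tissue. In each related list the 2 largest differences each way were named. Upstream sequences come from RefSeq (GRCm38.p6).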

Additional observations from a re-analysis of the deposited data

Results flagged for a closer look

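In 5 of 94 groups of 6 arrays (5.32%) 1 mouse lay far from the rest, and chance gives about 1 in 20. In colon these were Rxrb in HF-low-suf replicate 2 at -0.18 (the others 0.36 to 0.54), and, all on the array of HF-low-low replicate 1, Thrb at -1.25 (the others -0.58 to -0.18), Vdr at 1.48 (the others 0.66 to 0.96) and Esrrg at -0.75 (the others 0.03 to 0.47). In liver it was Nr1i3 in HF-low-low replicate 2 at 1.28 (the others 2.04 to 2.45).

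The effect of diet differed between liver and colon at an unadjusted limma P below 0.05 for the main probe of Rora, by -0.55, and for 4 other probes. These were the second Rora probe (-0.55), a dim Rora probe (-1.37), another Thrb probe (-0.61) and a dim Nr3c2 probe (-0.88). None passed Benjamini-Hochberg adjustment over all probes.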

How the results depend on the processing

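The counts of members called between tissues ran from 7 to 10 towards liver and from 5 to 8 towards colon over 27 alternatives, with the lowest at a fold threshold of 2, and leaving out each replicate gave 10 to 10 and 6 to 7. No member passed in a diet comparison when any replicate was left out (0 to 0), but in colon 1 passed without HF-low-suf replicates 1 and 2 (Nr4a1, -0.85), 1 on scan day 1 alone and 2 on scan day 2 alone. A fit without the mouse block, chosen after seeing the data, gave 10 and 7 between tissues. The replicate block (slide) changed no call, with 0 members called for diet in either tissue. Signs turned for a few small differences. Centring on the median gave -0.22 for Nr1i2, -0.016 for Nr2f2 and -0.14 for Nr5a2 between tissues, and 0.088 for Nr1d2 in the colon diet comparison. Other probes gave -0.12 for Thrb and 0.025 for Nr2c1 between tissues. In the colon diet comparison they gave -0.26 and -0.051 for Thrb (a further probe gave 0.41, the sign of the main one). There Nr2f2 gave 0.29 on a probe read on all 24 arrays. Nr2c1 gave 0.052 between tissues on scan day 1. In the colon diet comparison Nr1d2 gave 0.22 without HF-low-suf replicates 1 and 2 and 0.98 on scan day 2, and ran from -0.26 to 0.15 when a replicate was left out, while Nr4a1 gave 0.49 on scan day 1. The cause was not tested. Calls between tissues were lost for Thrb (0.38), Nr2e3 (-0.53) and Nr4a2 (-0.54) with median centring, for Nr4a1 on scan day 1 (-1.12), and for Nr2c2 on scan day 2 (-0.57). The dim Esrrb was called in 23 of the 25 alternatives at the 1.5-fold threshold in which it had a value. The signals processed by Feature Extraction shifted the median of all probes to -0.19. Signal over background limits the 9 members that were dim in both tissues.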
